A study of Mus musculus with 800 samples.

Results

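Mature apical vomeronasal neurons were chosen by 5 counts in single-cell chambers of 1 microfluidic chip: at least 30 counts of Gnai2, under 20 of Gnao1, at least 40 of Omp, under 10 of Gap43 and under 10 of Sox2. The rule took 166 of 394 single-cell chambers, out of 800 chambers in all. The other chambers were 325 that held no cell by label, 63 with several cells and 18 with a putative single cell. Cells came from the vomeronasal epithelium of 7 male mice aged 66 days (a second label gives 9 weeks) of the strain B6;129P2-Omptm3Mom/MomJ, which carry GFP under Omp on one allele and a wild-type Omp on the other, and no animal lacked the GFP allele. Before loading, cells were sorted as GFP-positive, Hoechst-positive and DRAQ7-negative, so cells without Omp-driven GFP were selected against. The mice were pooled as 3 and 4 animals, and the labels link no chamber to a pool, so each group of chambers is 1 sample. Intervals below are exact Clopper-Pearson 95% intervals that cover counting error only, so groups were compared by values alone and not tested.

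The vomeronasal organ detects pheromones and other chemical cues. Its sensory epithelium holds 2 layers of neurons: apical neurons use the G protein subunit encoded by Gnai2 and receptors of the V1R family, and basal neurons use that encoded by Gnao1 and receptors of the V2R family. Receptor signalling runs through phospholipase C to an ion channel and calcium-activated chloride channels, and axons of apical neurons end in the anterior accessory olfactory bulb, guided by receptors that include neuropilin 2. Omp marks mature chemosensory neurons and Gap43 marks those still growing an axon.

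The total in the 166 cells ran from 38368 to 260930 counts with a median of 150392, and a median of 6099 genes had a count (3762 to 8076). For comparison, 43 mature basal cells were taken by the mirrored rule (at least 30 Gnao1 and under 20 Gnai2) and 84 young apical cells by at least 10 Gap43, with median totals of 152757 and 152516.5. The depths of the 3 sets were therefore close. Empty chambers held a median of 20731 counts, but their range was 4501 to 319287. Of the 325, 63 held at least 50000 counts, and 26 met the same 5 limits as the apical cells. Values in empty chambers are therefore given for all 325 and, where named, for the 262 under 50000 counts. What those 63 chambers held was not tested.

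The limits set the levels of the 5 genes in the cells and are given as a description. Gnai2 ran from 34 to 199 counts (median 110), Omp from 40 to 201 (median 93) and Gnao1 reached at most 15. Few cells lay near a limit: no cell that met the other limits had 20 to 29 counts of Gnai2 and 2 had 30 to 39. For Gnao1, 4 cells lay at 10 to 19 counts and 4, left out, at 20 to 29. For Omp, 5 cells lay at 40 to 49 and 2, left out, at 30 to 39. Gap43 cut through a more continuous range, with 10 cells at 5 to 9 counts and 7, left out, at 10 to 14.

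Markers that the limits did not use went with the label. Here a gene is called on in a cell at 10 or more counts and off at 2 or fewer. Gng13, a G protein gamma subunit, was on in 97.6% of the apical cells (0 to 191 counts, median 87) and in 14.0% of the basal cells. Meis2, a homeobox transcription factor, was on in 96.4% (1 to 128, median 54.5) and in 2.33% of the basal cells. Nrp2, which encodes neuropilin 2, was on in 88.6% (0 to 117, median 49.5) and in 4.65% of the basal cells. These genes separated the 2 sets almost completely. They were also on in 40%, 31.4% and 21.5% of the empty chambers, and Gng13 was on in 32.8% of those under 50000 counts.

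**Figure D1:**
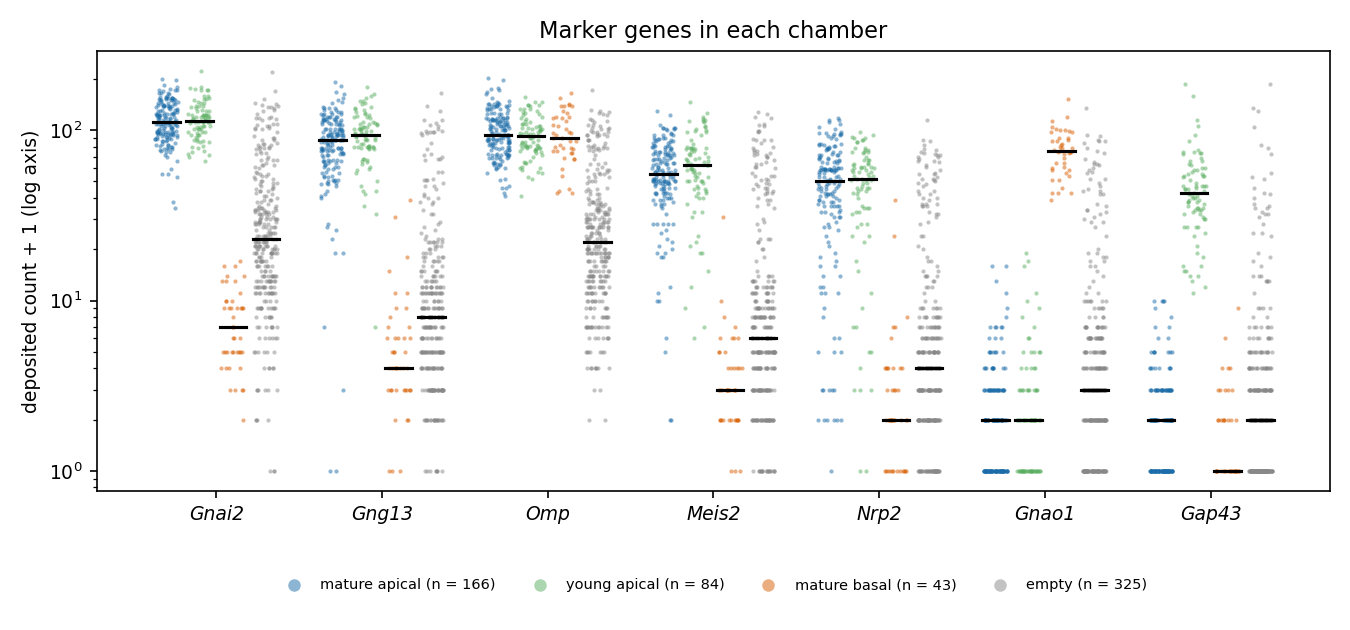
Counts per chamber (vertical axis) of the marker genes in mature apical cells, mature basal cells, young apical cells and empty chambers, with 1 point for each chamber, 1 added to each count on a log axis and a black bar at the median. Gng13, Meis2 and Nrp2, which the choice of cells did not use, had medians of 87, 54.5 and 49.5 counts in the apical cells.

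A broad set of genes was shared by most of the cells. Of 28502 non-receptor genes, 2946 had at least 3 counts in at least 50% of the apical cells, and they carried 65.1% of the counts. Only 64 genes were on in all 166 cells and 547 in at least 90%, whereas 16551 were on in at least 1 cell. The same limit gave 3224 genes in the basal cells, and 2695 were shared, 91.5% of the apical set and 83.6% of the basal set. The empty chambers gave 921, and each of these was also in the apical set. Counts are from the 3′ end of transcripts and are not divided by length.

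Genes at the top by mean count included the nuclear noncoding RNA Malat1, with 98 to 504 counts and a median of 234.5. Ubb, a polyubiquitin gene, had 50 to 419 (median 208), and Calm2, a calmodulin gene, had 14 to 311 (median 157). Each was on in every cell. Ldhb, a lactate dehydrogenase subunit, had 19 to 297 (median 153), and Chga, the secretory granule protein chromogranin A, had 31 to 281 (median 150). Gnb1, a G protein beta subunit, had 82 to 285 (median 145), and Fstl5, a secreted follistatin-like protein, had 62 to 253 (median 150). Empty chambers held the same transcripts, with medians from 31 counts for Calm2 to 54 for Malat1 at a lower total. Scaled to the totals of the groups, these genes were lower in the cells, with ratios of cells to empty chambers from 0.614 for Gnb1 to 0.899 for Calm2.

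Signal transduction genes ranged from on in every cell to on in none. Of 25 genes in the table, 12 were common by the limit above of 3 counts in at least 50% of the cells, against 2946 of 28502 over all non-receptor genes, about 1 in 10. The list's median on share was 20.5%, against 0.602% over all non-receptor genes. The G protein subunit genes Gnb1 and Gng8 were on in 100% of the cells, and Gng2 was on in 99.4% (1 to 179 counts, median 95) but in 16.3% of the basal cells. Gng2 thus differed between the 2 layers much as Gng13 did. The calcium-activated chloride channel genes Ano1 and Ano2 were on in 69.9% (median 31 counts) and 53.6% (median 15). Plcb2, a phospholipase C, was on in 20.5% (0 to 87 counts, median 0), Plcb4 in 11.4% and Itpr1, an inositol trisphosphate receptor, in 20.5%. Plcb1 reached at most 1 count and Itpr3 at most 9, so neither was on in any cell. Slc12a2, a chloride cotransporter, and Atp2b1, a plasma membrane calcium pump, were on in 94.0% and 95.8%.

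Of 26 transcription factor genes, 13 were common, against 2946 of 28502 over all non-receptor genes. By the on or off rule defined below, 12 of 20 tested (60%) were on or off, against 87.1% of all genes tested. Ebf1, of the olfactory Ebf family, was on in every cell (34 to 205 counts, median 86), Ebf2 in 92.8% and Ebf3 in 88.0%. Lhx2, a LIM homeobox factor of olfactory development, was on in 76.5%, and in 79.1% of the basal cells. Emx2, a homeobox gene, was on in 63.9% against 69.8% and Bcl11b, a zinc finger factor, in 36.7% against 30.2%. Tfap2e, which marks basal neurons, was on in 0 of 166 cells (at most 3 counts) and in 58.1% of the basal cells. Nfix, a nuclear factor I gene, was on in 31.3% (0 to 78 counts, median 1) and in 0 of 43 basal cells, which allows up to 8.22%.

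Of 27 axon guidance and adhesion genes, 19 were tested and 16 of these (84.2%) were on or off, near the 87.1% of all genes tested. Cntn4, a contactin, was on in 98.8% (2 to 179 counts, median 80), Kirrel2, a homophilic adhesion protein, in 86.7%, and Epha5 and Efna5, an Eph receptor and an ephrin, in 80.1% and 79.5%. Kirrel3, a relative of Kirrel2, was on in 42.2% (median 3 counts) and in 60.5% of the basal cells. Robo1, a Slit receptor, was on in 39.2% against 69.8%, and Robo2 in 1.20% against 69.8%. The 2 Robo genes thus had their higher share in the basal cells, and Nrp2 in the apical cells. Ncam2, a cell adhesion protein, was on in 50.6% against 6.98%. Its apical share was 37.0% after thinning and 9.04% under the cross-talk correction described below.

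Of 19 synaptic release genes, 12 were common, and the median on share was 53.0%, against 0.602% over all non-receptor genes. Snap25 was on in 97.0%, Syt1 and Rab3a in 92.8% and Slc17a6, a vesicular glutamate transporter, in 67.5% (0 to 98 counts, median 34.5), while Slc17a7 reached at most 1 count. Of 22 voltage-gated channel genes, 5 were common, with a median on share of 16.6%. The sodium channel genes Scn3a and Scn9a were on in 91.0% and 81.9%, and the potassium channel gene Kcna2 in 74.7%. Kcnn2, a calcium-activated potassium channel, was on in 21.1% (0 to 92 counts, median 0), in 4.65% of the basal cells and in 0.615% of the empty chambers. Kcnn2 was thus nearly absent from the empty chambers. Slc8a1, a sodium-calcium exchanger, was on in 6.02%, in 0.308% of the empty chambers and in 0 of 43 basal cells.

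Secreted, calcium-binding and metabolic genes were likewise on in every cell or in part of them. Cartpt, a neuropeptide precursor (19 to 226 counts, median 115), Scg3, a secretory granule protein, Spock1, a secreted proteoglycan, and Calb2, the calcium-binding protein calretinin (18 to 212, median 120.5), were on in every cell. Hpcal1 and Vsnl1, neuronal calcium sensors, were on in 61.4% and 66.3%. Of 18 glycolysis and energy genes, 12 were common, against 2946 of 28502 over all non-receptor genes. The same reference holds for the lists that follow here. Eno2, a neuronal enolase, was on in 53.6% against 16.3% of the basal cells, and Eno1 in 96.4% against 100%. Of 16 endoplasmic reticulum chaperone genes, 12 were common, with a median on share of 57.2% against 89.5% in the basal cells. Of 18 detoxification genes, 3 were common: Mgst3, Gstp1 and Gstm5, with on shares of 95.8%, 84.9% and 47.0%.

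Immediate early genes, which neurons switch on after activity and also after cell dissociation, were on in part of the cells. Fos was on in 54.2% (0 to 165 counts, median 12), Jun in 42.8%, Junb in 39.8% and Egr1 in 25.9%. Fos was on in 27.9% of the basal cells and 50% of the young apical cells. Arc, Nr4a1 and Npas4 were on in 4.82%, 4.22% and 1.20%. The part that cell handling had in these shares was not tested.

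Markers of other cell types were low in most lists. The summed share of counts of 9 basal neuron markers had a median of 0.00264% in the apical cells (0% to 0.0991%) and 0.0537% in the empty chambers. That list holds Gnao1 and the sustentacular list holds Sox2. The limits capped both genes, so both sums are partly set by the choice of cells. For 8 sustentacular markers the median was 0.0129% (0% to 0.316%) against 0.0483% in the empty chambers. For 6 gland, 8 glia and 5 endothelium markers it was 0% in both. The median lay above that of the empty chambers for 10 immune markers (0.000525% against 0%) and 7 progenitor markers (0.00479% against 0.00175%). Such small shares rest on few counts, and the empty chambers are shallower, so these medians are not a like comparison. By summed counts scaled to the totals, the median ratio of cells to empty chambers was 1.44 over 8 immune markers and 0.863 over 4 progenitor markers. Neurog1, Neurod1 and Mki67, which mark progenitors or dividing cells, were on in 0 cells, while Pcna was on in 38.6%. Cbr2, a sustentacular marker, was on in 18.1% of the apical cells and 21.5% of the empty chambers. The list for main olfactory neurons was mixed: Adcy3, Gnal and Cnga2 were on in 1.20%, 3.01% and 0%, but Gfy was on in 100%, the receptor transport genes Rtp1 and Rtp2 in 94.6% and 72.9%, and Cngb1 in 58.4%. Rtp1 was on in 9.30% of the basal cells.

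Against all 325 empty chambers, most genes of the apical cells lay within 2-fold. That set includes chambers with cell-like totals, and 26 of the 325 met the limits for the apical cells. Counts were summed over each group and scaled to its total, and 16296 genes had at least 50 counts over both. Of these, 2316 (14.2%) were at least 2-fold higher in the cells, 1876 (11.5%) at least 2-fold lower, and the median ratio was 1.09. Without the 63 empty chambers of at least 50000 counts, 5095 were higher and 1065 lower, so both numbers depended on those chambers. The extreme ratios rested on few counts. Tubd1, a tubulin delta gene, had 221 counts in the cells against 2 in the empty chambers (ratio 59.0, interval 16.2 to 490.5) and was on in 7 cells. Intervals of ratios here and below treat each count as separate, although the counts of a gene cluster in the chambers where it is on. They therefore leave out the spread between chambers and are too narrow. Rab15, a small GTPase gene, had 1 count against 175 (ratio 0.00305).

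With at least 2000 summed counts required, a limit added with the values in view, 5227 genes were compared against all 325 empty chambers. In the cells 52 were at least 2-fold higher and 53 at least 2-fold lower. Lancl1, a glutathione-binding protein gene, was the highest at 2.92-fold (interval 2.61 to 3.26). It was on in 54 cells (32.5%) and in 7 empty chambers. Arpin, an inhibitor of the Arp2/3 actin complex, was 2.65-fold higher. On the other side were Gnao1 and Gap43, which the choice of cells set, and Cnpy1 at a ratio of 0.0732 (interval 0.0653 to 0.0817). Krt8, a keratin, followed at 0.146, Cbr2 at 0.296 and Bglap3 at 0.325. Cnpy1 and Krt8 were on in 97.67% and 86.05% of the basal cells, against 4.22% and 5.42% of the apical cells. The part that leaving out basal cells had in their ratios was not tested. The mitochondrial share of counts was also lower in the cells, with a median of 1.22% against 3.41%.

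Counts of a gene in a cell had a peak at 0 to 1 and a second, broad one near 40. Over the apical cells and the 9968 genes tested, 167384 values were exactly 1 count, the lowest point lay at 18 counts with 6971 values, and a second peak of 11015 values lay at 39 counts. Of all values of non-receptor genes, 85.6% were off, 11.6% on and 2.88% in between. A gene was called on or off where it was on in at least 5% and off in at least 5% of the cells, where fewer cells lay in between than were on and than were off, and where the share of empty chambers with the gene on was under 50% of the share of the cells. Of 9968 genes on in at least 5% of the cells, 8686 (87.1%) met this, so on or off was the usual state of a gene and not a mark of a few. Of the rest, 586 were off in too few cells and 83 failed by the empty chambers alone, and the others had too many cells in between. Of the 2925 common genes tested, 1960 were on or off.

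**Figure D2:**
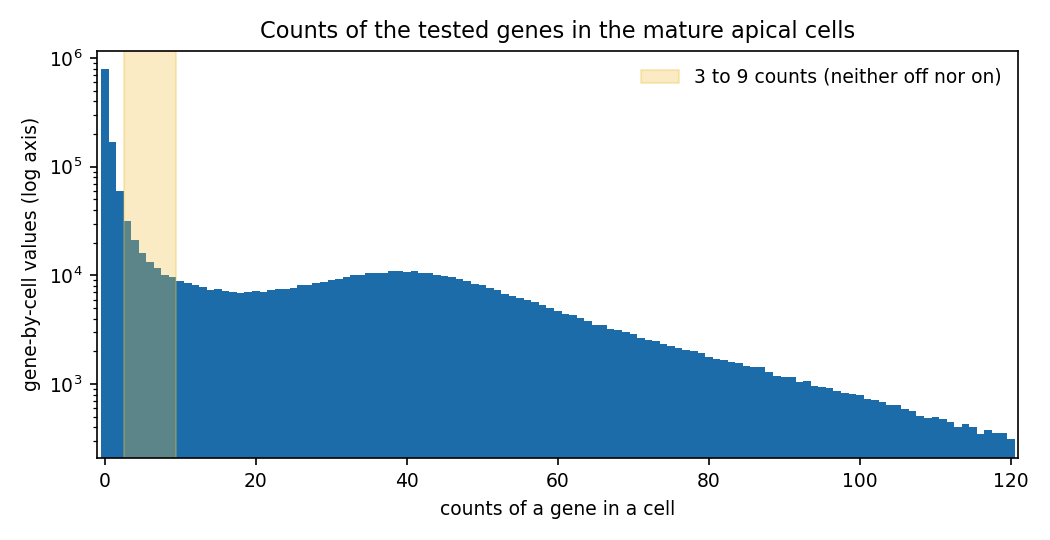
Number of values (vertical axis) at each count per gene and cell (horizontal axis) over the apical cells and the genes tested, on a log axis, with a band over 3 to 9 counts, which is neither off nor on. The lowest point lies at 18 counts and the second peak at 39 counts.

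The median level in the cells where a gene was on rose modestly over ranges of the share of cells. Genes on in 5 to 10% of the cells (1717 genes) had a median on level of 33 counts, and those on in 30 to 50% (1651 genes) had 38. Genes on in 70 to 95% (418 genes) had 46. The ranges of share were set beforehand and an on level starts at 10 counts by definition, so the 2 spreads cannot be compared. Within a range, on levels at the 5th and 95th percentiles were 19 and 44 counts for genes on in 5 to 10%. They were 30 and 60 for genes on in 70 to 95%. The share called depended on the limits: with off taken only at 0 counts 2531 genes (25.4%) were called, and after thinning each cell to 50000 counts 5658 of 7901 (71.6%). Between title numbers 1 to 10 (90 cells) and 11 to 20 (76 cells), 7472 genes were called in both, 88.3% of the 8458 in the first and 85.8% of the 8714 in the second. Whether the gap between off and on arises in the cells or in the capture and amplification of their RNA was not tested.

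**Figure D3:**
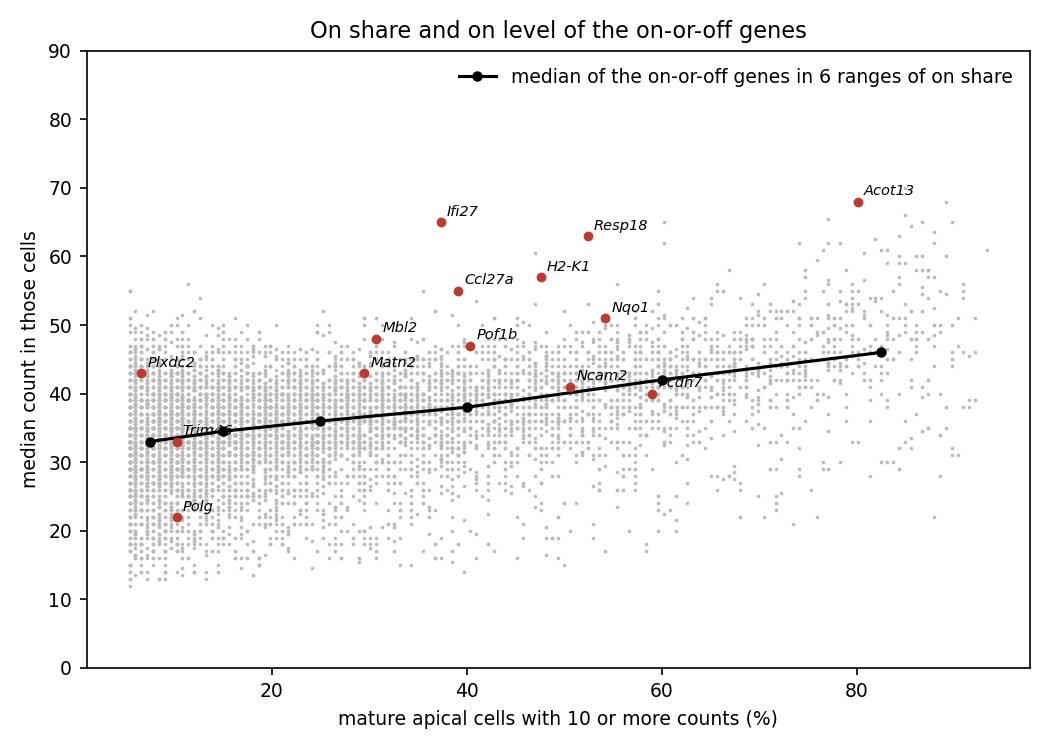
Median count where the gene was on (vertical axis) against the percentage of the 166 apical cells with the gene on (horizontal axis), with 1 grey point for each on or off gene, named genes in red and a line through the medians of 6 ranges of share. Median on levels run from 33 counts in genes on in 5 to 10% of the cells to 46 in genes on in 70 to 95%.

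Genes that varied most were ranked by the variance-to-mean ratio relative to genes of like mean. On counts scaled to the median total, the leading genes included Trim46, Polg, Pcsk2, Tmem129, Prickle2 and Ints2, but 17 of the first 25 had their highest value in the shallowest cell, whose 38368 counts were scaled up 3.92-fold. Ranking the deposited counts instead, a choice made with the values in view, kept 2 of the 25, H2-K1 and Ifi27. Without the 2 cells under 80000 counts, 2 of the 25 were kept, and 11 were shared with the ranking of deposited counts. The scaled ranking therefore turned largely on 1 cell, and the genes below are from the ranking of deposited counts.

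At the top of that ranking, Ccl27a, a chemokine, ran from 0 to 204 counts with a median of 3. It was on in 65 of 166 cells (39.2%), with a median of 55 counts where on, and in 20.9% of the basal cells and 7.08% of the empty chambers. Of its 50-base words, 45% occur in other genes, so part of its reads may belong to copies and its share is uncertain. Gm13306, the gene most like it by phi (0.644), was on in 35 cells, each with Ccl27a on. Resp18, an endocrine secretory granule protein, was on in 87 cells (52.4%; median 63 where on, highest 166), and in 18.6% of the basal cells. Nqo1, a quinone reductase, was on in 90 cells (54.2%; median 51 where on, highest 169), in 14.0% of the basal cells and in 17.2% of the empty chambers. In the young apical cells Resp18 was on in 47.6% and Nqo1 in 65.5%. Ifi27, an interferon-inducible gene, was on in 62 cells (37.3%; median 65 where on, highest 142), in 30.2% of the basal cells and in 65.5% of the young apical cells. H2-K1, a classical major histocompatibility class I gene, was on in 79 cells (47.6%; median 57 where on, highest 144), in 18.6% of the basal cells and in 11.7% of the empty chambers.

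Acot13, a thioesterase, was on in 80.1% and Efcab10 in 47.0%. Zfp141, a zinc finger gene, was on in 16.9% and Plxdc2, a membrane protein, in 6.63%. Srp54b shares 81.1% of its words with other genes and Gstp1 33.7%, so their shares are uncertain as well. Under a correction for counts spilling between chambers of a title row or number, the share of cells on was 8.43% for H2-K1, 4.22% for Nqo1, 3.61% for Ifi27 and 6.63% for Resp18. That correction sets a count to 0 unless it far exceeds those of the other chambers of its row and number, so it removes by construction genes that many chambers express. For Ccl27a the share under it was 13.3%, for Acot13 1.81%, for Efcab10 4.82%, for Oasl2 10.2% and for Nfix 18.1%. For Zfp141 the share after thinning was 9.70%.

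Mbl2, Pof1b, Pvalb and Matn2 were each on in part of the apical cells. Mbl2 (chr19:30232942-30239687, plus strand), a secreted lectin of innate immunity, had 0 to 112 counts with a median of 1. It was on in 51 of 166 cells (30.7%, 23.8 to 38.3%), with a median of 48 counts where on, against 4 of 43 basal cells (9.30%, 2.59 to 22.1%). Pof1b (chrX:112638431-112698651, minus strand), an actin-binding protein, had a median of 2 counts and of 47 where on. It was on in 67 cells (40.4%, 32.8 to 48.2%) and in 1 basal cell (2.33%, 0.0589 to 12.3%). Matn2 (chr15:34306677-34436273, plus strand), an extracellular matrix protein, had 0 to 68 counts with a median of 0. It was on in 49 cells (29.5%, 22.7 to 37.1%) and in 1 basal cell. Pvalb (chr15:78191114-78206400, minus strand), the calcium buffer parvalbumin, had 0 to 123 counts with a median of 2. It was on in 71 cells (42.8%, 35.1 to 50.7%) and in 11 basal cells (25.6%, 13.5 to 41.2%). The apical share was the higher of the 2 for each gene. Coordinates are on GRCm38.

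In the young apical cells the shares were 45.2% for Pof1b (34.3 to 56.5%), 34.5% for Pvalb (24.5 to 45.7%) and 28.6% for Matn2 (19.2 to 39.5%), and 26 of 84 had Mbl2 on. In the order Mbl2, Pof1b, Pvalb and Matn2, the shares among the 262 shallow empty chambers were 0.763%, 0.382%, 5.73% and 1.91%. Among all 325 they were 3.38%, 5.23%, 8.31% and 4.31% in the same order. The empty chambers are shallower, which lowers a share at a fixed count. Summed counts scaled to the totals were 1.51-fold higher in the cells than in all empty chambers for Mbl2, 1.83-fold for Pof1b, 1.67-fold for Pvalb and 1.26-fold for Matn2, so none of the 4 reached 2-fold. Under the cross-talk correction the shares in the apical cells were 17.5%, 18.7%, 15.7% and 21.1%. In title numbers 1 to 10 and 11 to 20 the shares were 33.3% and 27.6% for Mbl2, 45.6% and 34.2% for Pof1b, 46.7% and 38.2% for Pvalb, and 30% and 28.9% for Matn2.

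**Figure D4:**
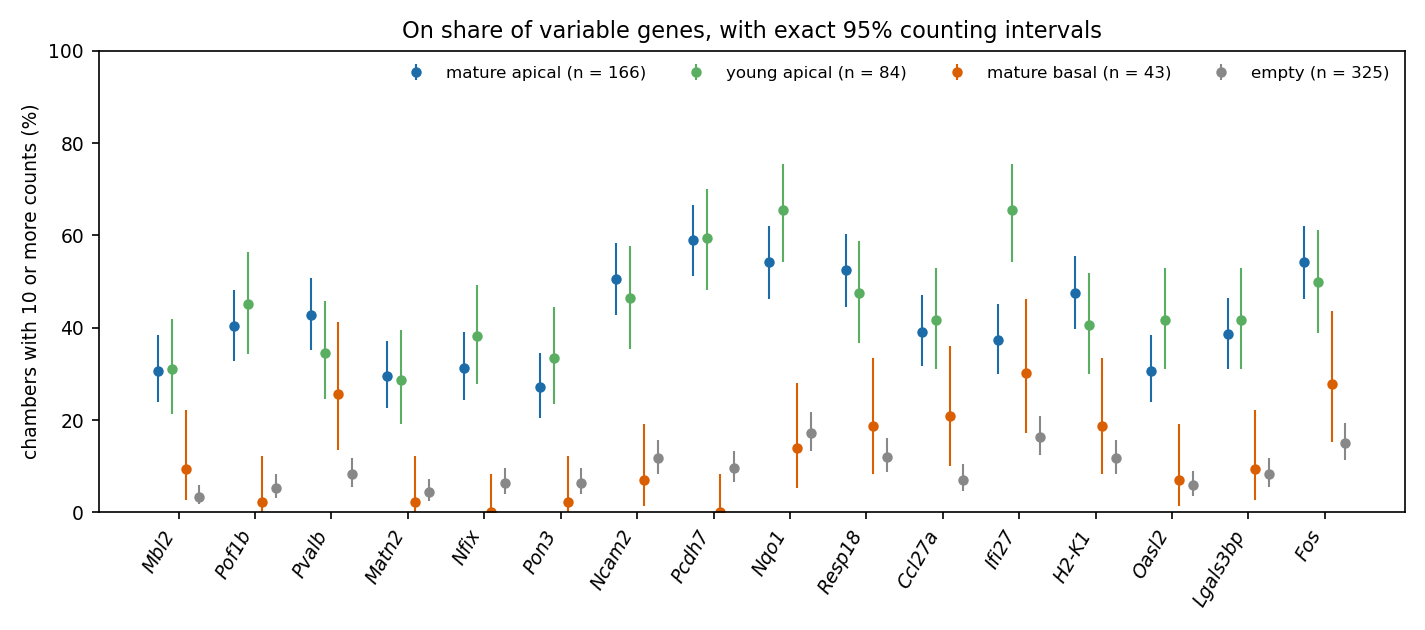
Percentage of chambers with each gene on, at 10 or more counts (vertical axis), for 16 variable genes (horizontal axis) in mature apical cells, mature basal cells, young apical cells and empty chambers, with exact 95% intervals that cover counting error only. Mbl2, Pof1b and Matn2 lie at 30.7%, 40.4% and 29.5% in the apical cells and at 9.30%, 2.33% and 2.33% in the basal cells.

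These 4 genes did not mark one shared subset. Of the 51 cells with Mbl2 on, 26 had Pof1b on (51.0%), against 41 of the other 115 (35.7%), and 15 had Matn2 on (29.4%), against 34 of 115 (29.6%). The phi coefficient, which is 1 for genes on in the same cells and 0 for no relation, ran over the 6 pairs from -0.0163 for Pof1b and Pvalb to 0.144 for Mbl2 and Pof1b. Over all 27993903 pairs of 7483 genes on in 10 to 90% of the cells, the median phi was 0.0231 and the 99th percentile 0.211, so none of the 6 pairs passed that percentile. Cells share a chip and differ in depth, and each phi is a description over 166 cells. The genes most like each by phi were 5031439G07Rik for Mbl2 (0.335), Gripap1 for Pof1b (0.304), Hnrnpa0 for Pvalb (0.356) and Nub1 for Matn2 (0.283).

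The cell's receptor was called where 1 receptor gene outside V2R family C had at least 10 counts and 50% of such counts. This held in 72 of the 166 cells (43.4%), of which 71 had a V1R, over 46 receptors, 27 of them in 1 cell. Only Vmn1r85 and Vmn1r89 were called in as many as 4 cells each. In the 4 Vmn1r85 cells, Mbl2 was on in 3, Pof1b in 2, Pvalb in 3 and Matn2 in 1. In the 4 Vmn1r89 cells, Mbl2 was on in 2, Pof1b in 1, Pvalb in 4 and Matn2 in 2. Over 52 named on or off genes, 22 were on in some and not in other cells of Vmn1r85 and 23 in those of Vmn1r89. Cells with the same called receptor thus differed in these genes. Most of the 52 were named for varying among the apical cells, so some mixing follows from their choice. Sets of 4 cells with different receptors were not compared, so a tie of these genes to the receptor was not tested. After the cross-talk correction, 105 cells had a call, 100 of them a V1R and 4 a V2R.

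Set against the basal cells over all on or off genes, the apical on share was a median of 1.22 points lower. Of these genes, 111 were at least 20 points higher and 358 at least 20 points lower. The on or off rule used the apical cells, so genes on in nearly all of them, such as Gng13 and Meis2, could not enter. Genes on in all basal cells could, so both numbers are partly set by the rule. On the apical side, Pcdh7, a protocadherin, was on in 98 of 166 cells (59.0%) and in 0 of 43 basal cells, which allows up to 8.22%. Tspan1, a tetraspanin, was on in 65.1% against 9.30%, and Gdpd1, a phosphodiesterase, in 60.8% against 6.98%. Gcnt2, a glycosyltransferase, was on in 67.5% against 14.0%, and Dner, a Notch-related membrane protein, in 83.1% against 32.6%. Each of these was on in most of the apical cells and in a minority of the basal ones. On the basal side, Agpat5, an acyltransferase of phospholipid synthesis, was on in 30.1% of the apical and 100% of the basal cells. Akr1b3, aldose reductase, was on in 36.7% against 90.7%, Fam3c, a secreted protein, in 43.4% against 95.3%, and Gramd1b, a sterol transfer protein, in 7.83% against 60.5%. Dnajc3 and Sdf2l1, endoplasmic reticulum chaperones, were on in 39.8% and 38.6% against 90.7% and 88.4%.

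Among the on or off genes, fewer were at least 20 points apart between mature and young apical cells than between mature apical and basal cells. Over the same genes the median difference was -1.59 points for mature minus young, against -1.22 for apical minus basal. In the mature cells 0 genes were at least 20 points higher than in the young and 16 at least 20 points lower, against 111 and 358 for the basal cells. The rule that chose these genes used the mature apical cells only, so these numbers too are partly set by it. Shares over 43 basal cells vary more by counting than shares over 84 young cells. The part this had in the numbers was not tested. Gap43 chose the mature and the young set and is not counted. Ifi27 was on in 37.3% (30 to 45.2%) of the mature and 65.5% (54.3 to 75.5%) of the young cells, and had the largest difference of the on or off genes, for which it is named. Arhgef38, a guanine nucleotide exchange factor, was on in 34.3% against 60.7% and Ppp3r1, the calcineurin regulatory subunit, in 44.0% against 70.2%. Markers of young neurons were still on in mature cells. Stmn2 was on in 62.0%, Tubb3 in 74.1%, Dpysl3 in 42.2% and Dcx, the migrating neuron protein doublecortin, in 27.1%. Their shares in the young cells were 75%, 71.4%, 50% and 36.9% in the same order. Gng8, of the same list, was on in every mature cell, as given above, and Gap43 was capped by the choice of cells.

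Ifi27 and H2-K1 belong to a wider set of interferon-associated genes, listed here after the values were seen. Of 35 in the list, 32 were tested and 27 of these (84.4%) were on or off, near the 87.1% of all genes tested. The median on share of the 32 was 22.9%, against 22.3% over all genes tested, so the list as a whole was not apart in either. Interferons are cytokines that induce antiviral genes and antigen presentation, and many of their target genes are switched on by STAT and IRF transcription factors. Antigen presentation genes of the list were uneven. B2m, the shared light chain of class I molecules, was on in 88.0%, H2-D1 in 69.9% and H2-K1 in 47.6%. The peptide transporter gene Tap1 and the immunoproteasome genes Psmb8 and Psmb9 were on in 11.4%, 10.8% and 12%, and Nlrc5, a class I transactivator, in 8.43%. Of the antiviral genes, Oasl2 was on in 30.7% (0 to 82 counts, median 1), Usp18 in 33.7%, Bst2 in 62.7%, Ifitm2 in 92.2%, Isg15 in 4.22% and Ifit1 in 5.42%. Of the factors, Stat2 was on in 33.7%, Irf9 in 32.5% and Irf7 in 4.82%.

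Pairs of these genes are given as a description only, because the list was made with the values in view. Among 25 genes of the list on in 10 to 90% of the cells, 33 of 300 pairs (11%) lay over the 99th percentile of all pairs (0.211). The median phi was 0.0691 against 0.0231. Several of the 33 pairs hold Oasl2 and others hold 2 H2 genes, so the pairs are not separate observations. The highest phi, 0.412, was that of Oasl2 and Lgals3bp, a galectin-binding glycoprotein. Lgals3bp was on in 68.6% of the cells with Oasl2 on and in 25.2% of the others. Oasl2 was on in 39 of the 79 cells with H2-K1 on (49.4%) and in 12 of the other 87 (13.8%). Oasl2 was also the gene most like H2-K1 by phi (0.385). Other pairs were Oasl2 with Xaf1 (0.317) and Usp18 (0.298), and Psmb8 with Usp18 (0.284). H2-T22 was on in 17 cells, each with H2-K1 on, but those genes share 27 words of 50 bases, and H2-K1 and H2-D1 share 141, so reads may be split between them. The pairs named here without 2 H2 genes shared none.

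Ifi27 went with Ifi27l2a, a gene of the same family, which was on in 20 cells, 17 of them with Ifi27 on (phi 0.365), but not with H2-K1. Ifi27 was on in 24 of the 79 cells with H2-K1 on (30.4%) and in 38 of the other 87 (43.7%), a phi of -0.137. A cell had 2 to 20 of the 25 genes on, with a median of 7, against 9 in the young apical cells, 6 in the basal cells and 1 in the empty chambers. Across the 166 cells, the number on had a correlation of 0.276 with the cell's total and 0.437 with its number of genes at 10 or more counts, so depth moved with it. The part depth has in the pairs was not tested.

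**Figure D5:**
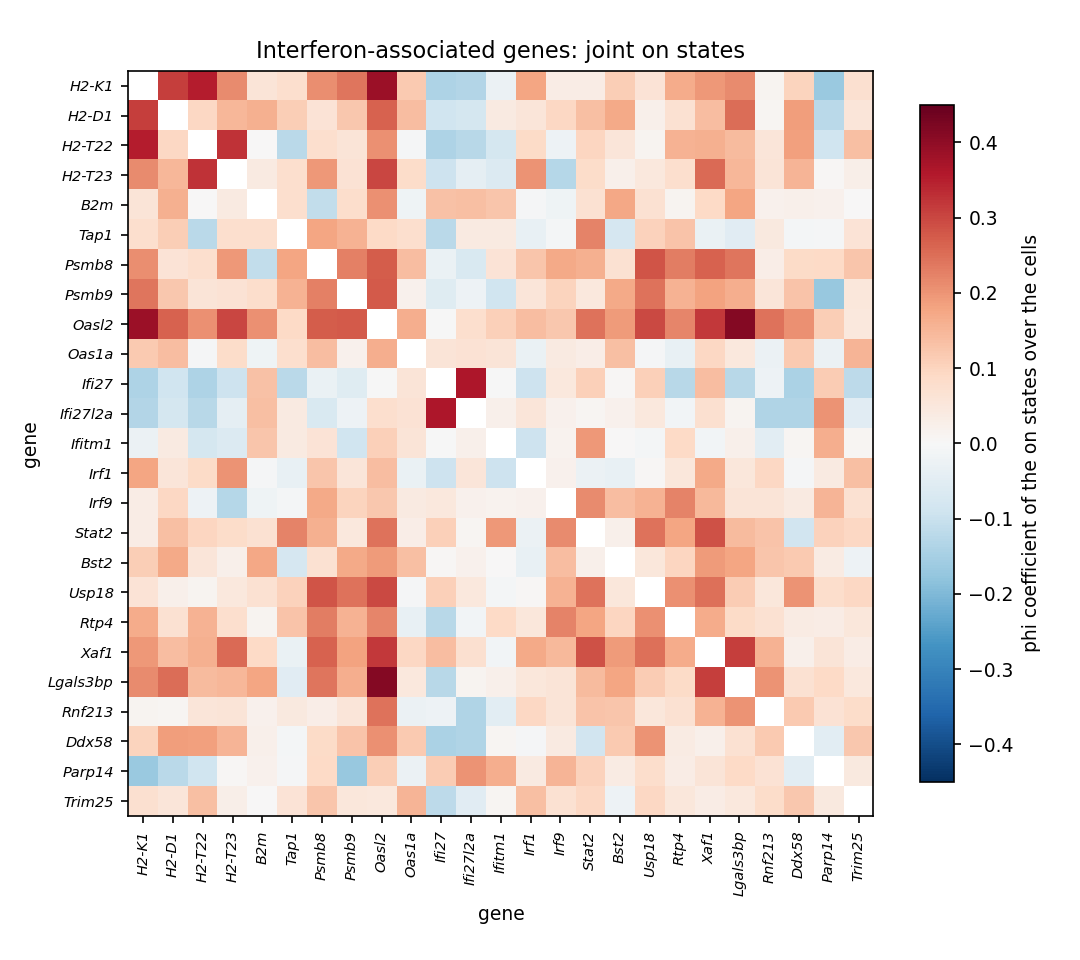
Phi coefficient (colour) of being on in the same cells for pairs of the 25 interferon-associated genes on in 10 to 90% of the 166 apical cells, with genes along both axes. The highest pair is Oasl2 and Lgals3bp at 0.412 and the lowest of the 300 lies at -0.170.

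H2-K1 and H2-D1 are related class I genes that were often on in the same cells, and the 250 bases before their starts are shown to let the 2 be compared. They were picked with the values in view and come from the RefSeq promoter table on GRCm38.p6, which had an entry for 26 of the 35 listed genes. The windows lie at chr17:34000348-34000597 (minus strand) for H2-K1 and chr17:35262844-35263093 (plus strand) for H2-D1, each written 5′ to 3′ on its gene's strand. Capitals mark the longest run of bases that both hold.
H2-K1: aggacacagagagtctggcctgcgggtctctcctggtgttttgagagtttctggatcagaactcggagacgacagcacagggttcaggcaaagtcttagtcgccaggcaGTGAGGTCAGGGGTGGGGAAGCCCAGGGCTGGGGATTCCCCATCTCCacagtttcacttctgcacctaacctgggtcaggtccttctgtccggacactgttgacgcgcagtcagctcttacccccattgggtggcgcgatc
H2-D1: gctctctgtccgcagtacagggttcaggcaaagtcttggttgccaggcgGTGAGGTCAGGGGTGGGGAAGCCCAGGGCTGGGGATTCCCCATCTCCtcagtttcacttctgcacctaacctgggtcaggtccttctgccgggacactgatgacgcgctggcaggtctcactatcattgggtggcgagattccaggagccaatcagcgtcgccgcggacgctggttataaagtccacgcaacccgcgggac
The shared run is 47 bases long and starts 141 bases before the start of H2-K1 and 201 bases before that of H2-D1. It occurred in 3 of 32851 promoters of the table. H2-D1 was on in 67 of the 79 cells with H2-K1 on (84.8%) and in 49 of the other 87 (56.3%), a phi of 0.310. The shared letters are given as a description only. No binding site is named in them, and any part they have in the joint on states was not tested.

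Nqo1 was set beside the genes most like it and a few genes of the antioxidant response. G6pdx, the first enzyme of the pentose phosphate pathway, was the named gene most like it after the gene model 9130230N09Rik (phi 0.306), on in 74 of 90 cells with Nqo1 on (82.2%) and in 41 of the other 76 (53.9%), a phi of 0.305. Other genes of the antioxidant response did not stand out: phi was 0.132 for Gclc, -0.0181 for Txnrd1 and -0.0889 for Gclm. Resp18 and Ccl27a were, like Nqo1, on in a larger share of the apical than of the basal cells. The intervals were 44.5 to 60.2% against 8.39 to 33.4% for Resp18, and 46.3 to 62.0% against 5.30 to 27.9% for Nqo1.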

How the data were processed

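The authors deposited a table of raw counts for 28963 genes, in which identical 5-base molecular tags of a gene are counted once (values from 0 to 662). Per the submitters' processing notes, reads were handled with STAR 2.5.4b, UMI-tools 0.5.3, SAMtools 1.5, bcl2fastq and featureCounts 1.6.1, and the genome was GRCm38. The name the authors gave the table mentions fractional handling of multimapping reads, yet each value is a whole number, so how such reads entered is unclear. With 5 bases there are 1024 identifiers, so high counts run low. 1 column of no listed sample was not used.

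Chambers were grouped by their labels' capture state, multiple-cell chambers were left out by label and no doublet caller was run. No further filter on cells was set. Receptor and mitochondrial genes were left out of the on or off rule. Thinning drew 50000 counts per cell and left out 1 of 166 cells. Scripts ran in Python 3.11.15 with numpy 2.4.6, pandas 2.3.3 and scipy 1.17.1. Only the on or off rule and the variance-to-mean ranking were run on simulated counts. The simulated empty chambers held no counts, so the limit from empty chambers was not tried there. Named genes were the markers, the 25 most variable by the ranking, the 15 highest by mean, the 10 largest ratios each way, and list members that were on or off or led their list. The members and lists were chosen with earlier results of these data known. Some listed genes were not analysed here.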

Additional observations from a re-analysis of the deposited data

How the results depend on the processing

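The number of apical cells stayed between 155 and 173 under other limits. Common genes numbered 5018 at a minimum of 1 count, 5765 at 25% of cells and 1538 at 75%, against 2946. Genes higher in the cells than in empty chambers numbered 4185 at 1.5-fold, 1253 at 3-fold, 3904 with no minimum, 957 at a minimum of 200 counts, 5095 without empty chambers of 50000 counts or more and 52 at a minimum of 2000, the last chosen after seeing the data. Genes lower numbered 2973, 1168, 5676, 791, 1065 and 53 in the same order. On or off genes numbered 2531 with off only at 0 and 5658 after thinning to 50000 counts, against 8686, and stayed within 1.5 times under the other alternatives run (6870 to 10321). Of 56 named genes, the on share left its interval for 24 under the cross-talk correction and 21 after thinning, lower in each case. Thinning gave 18.2% for Matn2 and 21.8% for Nfix. No paired analysis was possible because chamber numbers only name chambers and the labels link none to a pool. Shares below a few percent are limited by the number of cells, and each group is 1 sample.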
